A study of Homo sapiens with 6 samples.

Results

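The RBM genes encode RNA-binding proteins named for an RNA-binding motif, and they were taken as the protein-coding genes on chromosomes 1 to 22 and X whose symbol is RBM followed by a number and optional letters. By this rule there were 37 among 19974 protein-coding genes of the RefSeq table of GRCh38.p14. Peaks of the nuclear speckle protein SON and of the high mobility group protein HMGB2 were read at each of them, in the gene span and 5 kb on either side. The rule reads only symbols and positions, and the family was picked with earlier results of these data known.

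RBM proteins carry RNA recognition motifs, and many of them decide which exons a transcript keeps. Nuclear speckles are bodies between the chromosomes where splicing factors gather around the scaffold proteins SON and SRRM2, and several RBM proteins, among them RBM25 and RBM39, are known residents of speckles. The genes of splicing factors are often themselves spliced in alternative ways that set the amount of protein made.

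The chromatin came from IMR90, an established line of human embryonic lung fibroblasts, and was profiled by ChIPmentation, in which a transposase adds sequencing adapters to antibody-bound chromatin on the beads. There were 3 SON groups, namely untreated, 3 days and 6 days of a treatment that the labels call ICM without expanding the name, and 1 HMGB2 group, untreated. Cells for SON were fixed with formaldehyde, and cells for HMGB2 with EGS and then formaldehyde, so target and fixation cannot be told apart. Each of the 4 groups is 1 deposited peak list, of 6 samples in the series, with no genotype other than that of the line. The input for HMGB2 and another HMGB2 sample, whose name holds DSG, were not analysed here.

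On these chromosomes the lists held 22216 peaks for SON in untreated cells, 11028 at 3 days, 5481 at 6 days and 5992 for HMGB2. The lists give no read counts, so depth is unknown, and with 1 list per group no difference between conditions was tested. A peak that is missing may mean fewer cells bound, less binding per cell or a shallower library, which cannot be told apart. Of 8 fibroblast genes, 7 had an untreated SON peak and 4 an HMGB2 peak (VIM had neither), against 1 of 4 epithelial, 2 of 3 endothelial and 1 of 4 leukocyte genes for SON and none for HMGB2. Over all protein-coding genes the shares were 57.1% for SON and 23.3% for HMGB2. Within 1 kb of the gene start, an untreated SON peak was present at 3 of the 8 fibroblast genes and at none of the others, against 40.1% of all genes. Peaks show binding and not expression, so these counts do not check the cell type.

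Peak strength is the authors' −log10 p of the peak. In the SON lists it is the lower of the values of 2 replicates, both of which are given below. The 2 values are identical for 56.0% of all untreated SON peaks, 28.9% at 3 days and 9.47% at 6 days, and why is not given in the sources used here, so an identical pair is no measure of agreement. The percentile of a peak ranks it within its own list, where 100 is the strongest. The lists differ in length, so percentiles and −log10 p values set side by side for different lists describe each list and measure no change. The global IDR, the irreproducible discovery rate of the 2 replicates, is smaller for more reproducible peaks, and its largest value was 0.431 in the untreated SON list, 0.447 at 3 days and 0.63 at 6 days.

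The promoters of the members with the strongest peaks, and of those with a peak in every list, are shown first, because SON and HMGB2 peaks of these genes lay over them. Each line gives the 250 bases before the start of the gene in RefSeq (GRCh38.p14), 5′ to 3′ on the strand of the gene. Capitals mark matches, on either strand, to motifs of factors known to act at promoters. For ETS factors the letters searched were CCGGAAG. For YY1 they were AAGATGGC. The SP and KLF factors were searched as GGGCGG, the GC box. The motif of NFY was CCAAT, the CCAAT box. For NRF1 both the full palindrome and its core GCATGCG were searched. The CRE, the cyclic AMP response element, was searched whole as TGACGTCA and by its core TGACG. The E-box was CACGTG, as bound by MYC and USF proteins. The TATA box was TATAAA, and the core of the CTCF motif was searched as well. The 2 cores lie within their full motifs, and in RBM8A an SP and KLF match runs into an NFY match. The table matched 33 of the 37 members and does not hold RBM12B, RBM39, RBM43 and RBM48.
RBM7 (chr11:114400416-114400665, plus strand): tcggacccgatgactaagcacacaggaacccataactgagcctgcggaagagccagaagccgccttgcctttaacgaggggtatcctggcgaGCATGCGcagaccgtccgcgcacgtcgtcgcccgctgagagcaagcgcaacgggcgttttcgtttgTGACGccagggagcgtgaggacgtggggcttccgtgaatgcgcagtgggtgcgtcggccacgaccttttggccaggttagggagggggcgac
RBM15 (chr1:110339127-110339376, plus strand): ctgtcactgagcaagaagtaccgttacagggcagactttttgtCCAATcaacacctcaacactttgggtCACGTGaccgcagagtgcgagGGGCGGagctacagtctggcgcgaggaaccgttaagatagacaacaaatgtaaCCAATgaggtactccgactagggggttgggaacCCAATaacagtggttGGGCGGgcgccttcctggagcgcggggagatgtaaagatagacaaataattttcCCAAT
RBM17 (chr10:6088784-6089033, plus strand): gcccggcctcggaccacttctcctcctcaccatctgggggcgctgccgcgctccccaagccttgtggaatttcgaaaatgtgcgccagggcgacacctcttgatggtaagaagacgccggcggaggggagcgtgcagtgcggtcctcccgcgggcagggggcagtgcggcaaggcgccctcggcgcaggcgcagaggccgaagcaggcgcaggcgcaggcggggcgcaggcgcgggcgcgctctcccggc
RBM23 (chr14:22919150-22919399, minus strand): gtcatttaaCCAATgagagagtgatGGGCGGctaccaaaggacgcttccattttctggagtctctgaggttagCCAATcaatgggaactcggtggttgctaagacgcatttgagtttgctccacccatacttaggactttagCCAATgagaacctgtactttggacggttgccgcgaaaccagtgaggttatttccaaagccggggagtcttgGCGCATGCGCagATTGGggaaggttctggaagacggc
RBM14 (chr11:66616380-66616629, plus strand): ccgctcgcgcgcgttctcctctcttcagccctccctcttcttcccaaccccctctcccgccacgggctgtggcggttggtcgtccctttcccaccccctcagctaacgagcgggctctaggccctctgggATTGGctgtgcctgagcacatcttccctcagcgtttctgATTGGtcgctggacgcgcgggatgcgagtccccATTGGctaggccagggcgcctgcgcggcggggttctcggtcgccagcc
RBM8A (chr1:145927485-145927734, minus strand): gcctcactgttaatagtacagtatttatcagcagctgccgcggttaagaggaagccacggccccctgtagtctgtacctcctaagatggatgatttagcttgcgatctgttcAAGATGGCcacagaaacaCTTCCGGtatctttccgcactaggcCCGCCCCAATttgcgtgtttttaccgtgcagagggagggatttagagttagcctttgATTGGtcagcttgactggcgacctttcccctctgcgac
RBM4B (chr11:66677888-66678137, minus strand): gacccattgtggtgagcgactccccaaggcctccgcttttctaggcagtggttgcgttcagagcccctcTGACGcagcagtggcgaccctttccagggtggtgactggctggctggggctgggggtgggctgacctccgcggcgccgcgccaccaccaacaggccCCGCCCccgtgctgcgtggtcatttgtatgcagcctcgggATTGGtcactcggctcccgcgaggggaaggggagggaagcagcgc
RBM25 (chr14:73058284-73058533, plus strand): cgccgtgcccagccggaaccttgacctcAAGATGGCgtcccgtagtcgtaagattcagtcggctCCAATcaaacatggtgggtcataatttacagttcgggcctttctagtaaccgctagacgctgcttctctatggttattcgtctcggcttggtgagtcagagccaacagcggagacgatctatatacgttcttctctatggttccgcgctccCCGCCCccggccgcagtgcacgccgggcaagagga

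For contrast, the promoters of RBM34 and RBM20 had no SON peak over them although both genes counted as having a SON peak in each of the 3 SON lists. The start used for RBM20 lies inside its gene span, which begins at chr10:110643245.
RBM34 (chr1:235161251-235161500, minus strand): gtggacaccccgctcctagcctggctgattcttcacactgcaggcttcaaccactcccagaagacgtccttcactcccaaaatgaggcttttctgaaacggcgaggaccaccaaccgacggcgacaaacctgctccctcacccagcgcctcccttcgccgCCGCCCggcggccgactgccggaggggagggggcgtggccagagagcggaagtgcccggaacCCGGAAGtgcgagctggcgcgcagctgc
RBM20 (chr10:110644086-110644335, plus strand): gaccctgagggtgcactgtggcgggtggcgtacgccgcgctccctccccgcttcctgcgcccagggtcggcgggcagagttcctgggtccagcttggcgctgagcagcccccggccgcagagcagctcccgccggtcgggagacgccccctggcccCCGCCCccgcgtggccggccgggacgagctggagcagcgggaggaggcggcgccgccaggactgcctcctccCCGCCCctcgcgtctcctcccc

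SON peaks in untreated cells covered all 250 bases of the RBM7, RBM15, RBM17, RBM23, RBM14, RBM4B and RBM25 promoters and 242 bases of the RBM8A promoter. HMGB2 peaks covered 250 bases in RBM14, 242 in RBM23, 228 in RBM15, 226 in RBM25, 190 in RBM4B, 186 in RBM7 and 171 in RBM8A, and none in RBM17. The CCAAT box was repeated in several of these promoters, with 4 matches each in RBM15 and RBM23 and 3 in RBM14. RBM17 held no match to any motif searched. Among all 33 members with a promoter in the table, 19 (57.6%) had a CCAAT match, against 34.4% of the promoters of 15810 protein-coding genes and 40.8% of the 6790 whose start had an untreated SON peak. RBM4, whose promoter is not printed, held 5. An SP and KLF match was present in 20 members (60.6%), against 55.8% of all promoters and 67.8% of those with a SON peak. ETS was matched in 7 members (21.2%, against 11.7% and 19.6%), CRE in 3 (9.09%, against 2.29% and 3.71%), YY1 in RBM25 and RBM8A (6.06%, against 1.41% and 2.47%) and the full NRF1 motif in RBM23 alone of the members (3.03%, against 1.49% and 3.03%). The CTCF core was matched in RBM18 and RBM22 (6.06%, against 2.40% and 2.72%), the TATA box in RBM26 and RBM47 (6.06%, against 9.36% and 5.21%) and the E-box in 3 members (9.09%, against 7.79% and 9.79%). The cores gave 2 members for NRF1 (6.06%, against 4.53% and 8.07%) and 8 for CRE (24.2%, against 25.4% and 34.8%). The members' shares cover all 33 promoters, of which 23 had an untreated SON start peak and 10 had none. The second share of each pair covers only promoters with such a peak, so those 2 sets are unlike. These counts describe letters in the window and were not tested.

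Most RBM genes carried a SON peak in untreated cells, and fewer did in the shorter lists after ICM. In untreated cells 31 of the 37 members had a SON peak in the gene span plus 5 kb (83.8%, 95% exact binomial interval 68.0 to 93.8%), against 57.1% of all 19974 protein-coding genes. At 3 days 22 had one (59.5%, 42.1 to 75.2%), against 41% of all genes, and at 6 days 16 (43.2%, 27.1 to 60.5%), against 21.5%. HMGB2 peaks were present at 14 (37.8%, 22.5 to 55.2%), against 23.3%. Intervals here and below cover counting error only. The members' gene spans ran from 5.93 to 208 kb with a median of 27.2 kb, close to the median of 24.2 kb over all genes. Among all genes with spans between 12.5 and 47.5 kb, the lower to the upper quartile of the members, the shares were 60.3%, 43.4%, 21% and 23.7% in the same order of lists.

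**Figure D1:**
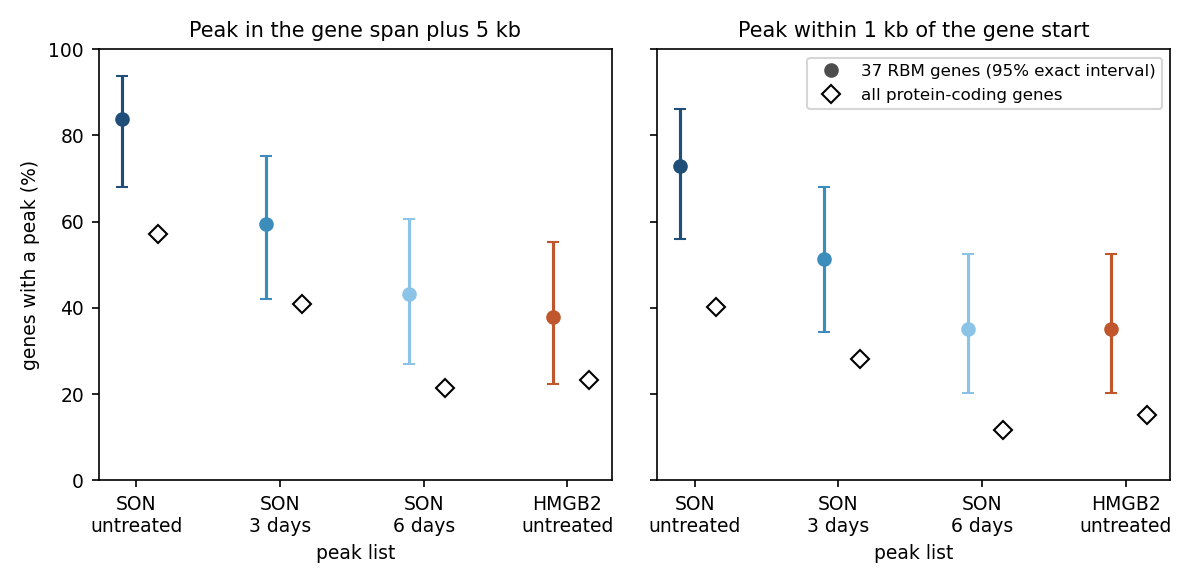
Share of genes with a peak in each list, in the gene span plus 5 kb (left) and within 1 kb of the gene start (right). Filled points are the 37 RBM genes with 95% exact binomial intervals and open diamonds are all 19974 protein-coding genes. The members' points lie above the diamonds in all 4 lists of both panels.

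The number of members with a SON peak fell from 31 to 16 as the lists became shorter, and why was not tested. When each list was reduced to its 5481 strongest peaks, the members with a SON peak numbered 17 untreated, 17 at 3 days and 16 at 6 days, against 26.2%, 27.2% and 21.5% of all genes. An equal number of peaks per list cannot show a loss of binding common to all peaks, and the 6-day list was not cut. Of the members with an untreated SON peak, 22 of 31 also had a peak at 3 days (71.0%, 52.0 to 85.8%, against 70.2% of all genes with an untreated peak) and 15 of 31 at 6 days (48.4%, 30.2 to 66.9%, against 37.2%). An HMGB2 peak was present at 14 of the 31 (45.2%, 27.3 to 64.0%, against 37.9%). When peaks with a global IDR above 0.05 were left out, the counts were 23, 16 and 7, against 45.0%, 24.0% and 5.02% of all genes. The global IDR comes from the 2 replicates, and the share of identical pairs given above differs between the lists. How far those pairs shape this cut was not tested, so the 3 counts are not a like measure. The 7 members left at 6 days were RBM4B, RBM7, RBM17, RBM23, RBM25, RBM34 and RBM39.

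A peak in all 4 lists was present at 10 members (27.0%, 13.8 to 44.1%, against 10.6% of all genes): RBM4B, RBM7, RBM14, RBM15, RBM20, RBM23, RBM25, RBM34, RBM39 and RBM48. A further 5, RBM12, RBM12B, RBM17, RBM19 and RBM42, had a peak in each of the 3 SON lists and none for HMGB2, so that 15 members (40.5%) had a peak in all 3 SON lists, against 20.3% of all genes. No list had a peak at 5 members, RBM11, RBM24, RBM38, RBM41 and RBM44 (13.5%, 4.54 to 28.8%, against 40.3%). RBM46 was the only member with a SON peak after ICM and none before, a class that held 1.1% of all genes. No peak lay in the windows of more than 1 member.

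**Figure D2:**
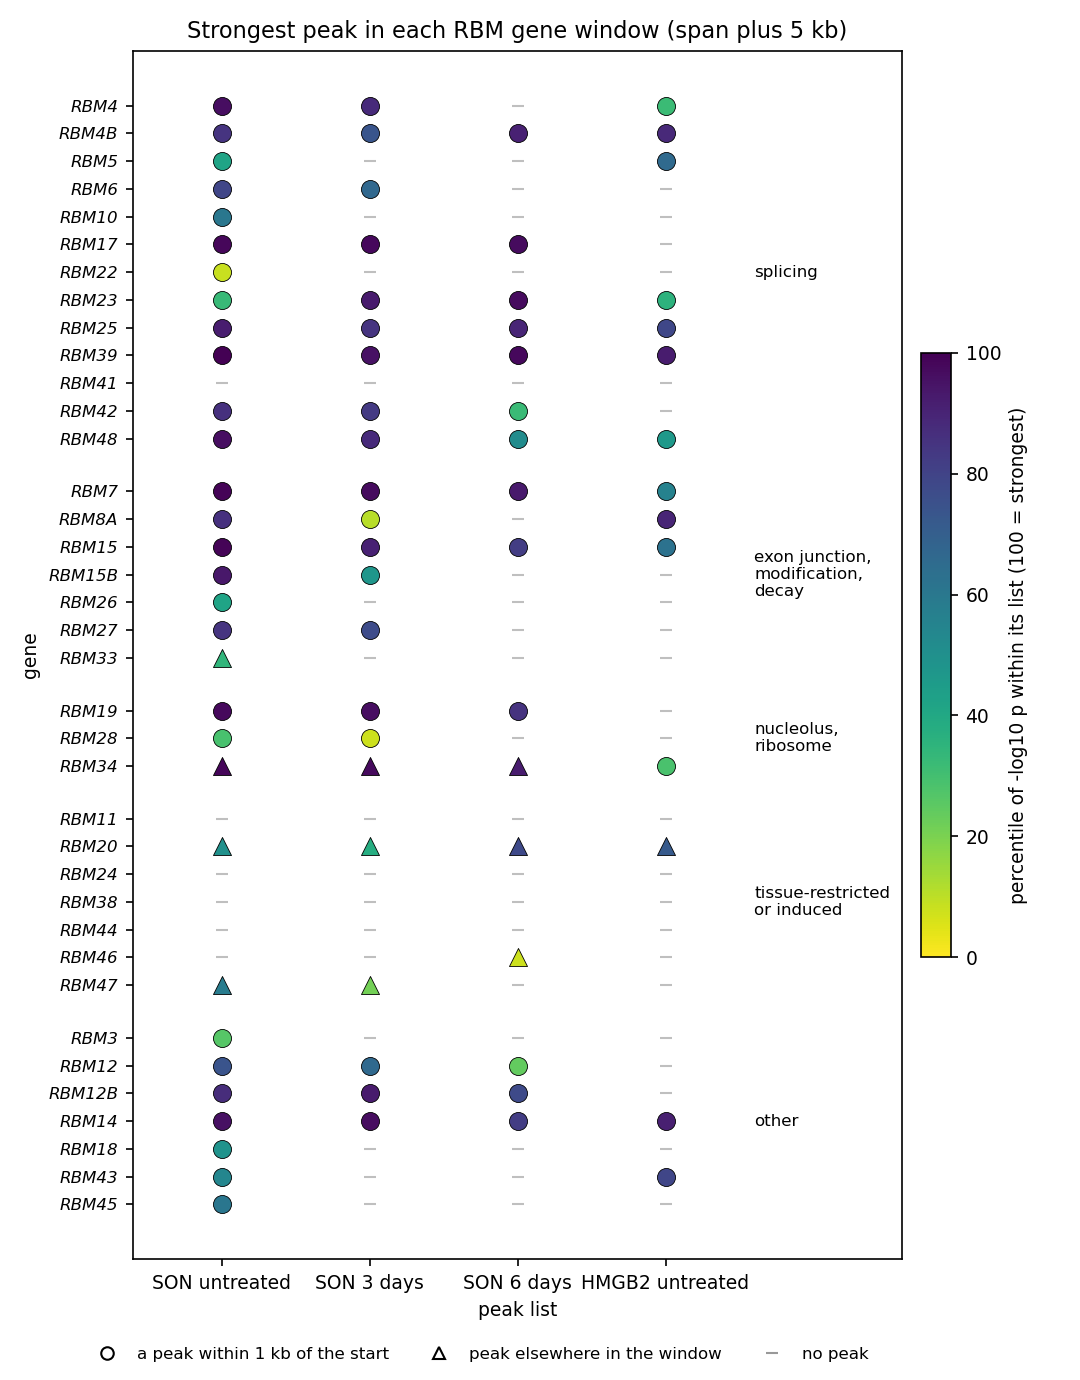
Strongest peak of each RBM gene in each list. Rows are genes grouped by role, columns are lists, colour is the percentile of −log10 p within the list, circles mark genes with a peak within 1 kb of the start, triangles mark genes with a peak only elsewhere in the window and dashes mark no peak. The tissue-restricted or induced group has no circle in any of the 4 lists.

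The peaks sat at the starts of the genes. A SON peak within 1 kb of the start was present in untreated cells at 27 members (73.0%, 55.9 to 86.2%), against 40.1% of all genes, at 3 days at 19 (51.4%, against 28.2%) and at 6 days at 13 (35.1%, against 11.7%). HMGB2 had a start peak at 13 members (35.1%, against 15.2%). Of the 27 with an untreated start peak, 19 also had one at 3 days (70.4%, against 68.4% of all genes with an untreated start peak), 13 at 6 days (48.1%, against 28.9%) and 12 for HMGB2 (44.4%, against 33%). Where the table gives no start, either end of the gene was used, which was so for 4 members and 4162 of all genes. Seen from the peaks, 27 of the 42 untreated SON peaks in member windows lay at a start (64.3%), against 32.8% of all untreated peaks. At 3 days these were 19 of 24 (79.2%, against 44.2%), at 6 days 13 of 17 (76.5%, against 35.4%) and for HMGB2 14 of 16 (87.5%, against 46.9%).

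The 15 untreated SON peaks away from a start were weaker, with a median percentile of 39.3 against 85.1 for the 27 at a start. Over all untreated peaks the same medians were 42.7 and 67.9. The members' medians away from a start were 38.1 at 3 days (5 peaks), 62.2 at 6 days (4 peaks) and 82.2 for HMGB2 (2 peaks). Over all peaks away from a start they were 38.7, 43.9 and 46.0. For HMGB2 the members' order was thus the other way, on 2 peaks only, while over all HMGB2 peaks those at starts were the stronger ones. At 3 days the start peaks of members had a median percentile of 88.1 (67.6 over all start peaks), at 6 days 85.4 (64.5 over all) and for HMGB2 64.0 (55.7 over all).

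Summits lay just upstream of the start. Among members with a start in the table, 22 of the 23 untreated SON summits were upstream, against 85.6% over all genes with a start in the table. So this place is the usual one. The members' positions ran from -207 to 52 bp relative to the start, where negative is upstream, with a median of -92 bp (-95 bp over all start peaks). The median was -118 bp at 3 days (16 peaks), -135 bp at 6 days (10 peaks) and -96 bp for HMGB2 (11 peaks), against -109, -132 and -106 bp over all genes. Every SON start peak with a start in the table, 23, 16 and 10 in the 3 lists, covered the start itself, while 6 of the 11 HMGB2 peaks did. The share over all start peaks was not counted, so these counts show nothing particular to the members. HMGB2 peaks were also narrower, with a median width of 242 bp over the whole list, against 412, 447 and 424 bp in the SON lists. RBM28 was the member with its SON summit inside the gene, 52 bp after the start in untreated cells and 59 bp at 3 days.

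**Figure D3:**
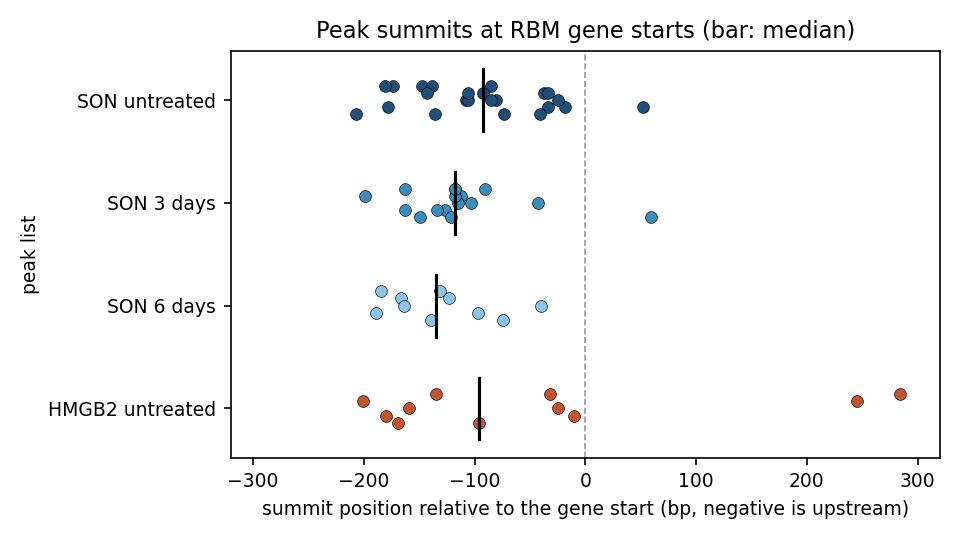
Position of each peak summit relative to the start of its RBM gene, in bp, with negative values upstream, for the genes with a start in the table. Points are peaks, black bars are medians, and rows are lists. The medians lie between -135 and -92 bp, and the 2 HMGB2 summits farthest inside a gene, at 245 and 284 bp, belong to RBM14 and RBM34.

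The splicing genes among the members carried a SON peak at the start in untreated cells for 12 of 13, at 3 days for 9 and at 6 days for 7, and an HMGB2 peak there for 7. The shares of all genes with a start peak were 40.1%, 28.2%, 11.7% and 15.2% in the same order. RBM41, which recognises RNA of the minor spliceosome, was the 1 without a peak in any list. RBM39, an activator of splicing that aryl sulfonamide drugs send to degradation, had the strongest untreated SON peak of all members, at chr20:35742129-35742723 over the higher-coordinate end of its span (chr20:35701347-35742260). Its −log10 p was 131 and 138 in the 2 replicates, rank 61 of 22216 and percentile 99.7. At 3 days the peak stood at 37.1 in both replicates (percentile 95.4) and at 6 days at 33.0 and 26.7 (percentile 97.8). The global IDR of this peak was 0.00157 at 3 days and lower in the other 2 SON lists. RBM39 also carried the strongest HMGB2 peak of the members, 2.20 kb from that end inside the gene, with a −log10 p of 18.7, a fold enrichment of 9.33 and percentile 92.3, and a second HMGB2 peak over the end itself with 15.8, 4.43 and 87.1.

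RBM23, a close relative of RBM39, had a low rank in untreated cells and high ranks later. Its start peak had a −log10 p of 7.92 in both untreated replicates (percentile 32.4, global IDR 0.431). At 3 days it had 26.7 and 112 (percentile 92.6), and at 6 days 23.8 and 27.7 (percentile 97.1, rank 161 of 5481). The 2 replicates at 3 days were thus far apart, while those at 6 days were close. The HMGB2 peak there had 8.49, a fold enrichment of 2.64 and percentile 35.7. Of the untreated start peaks found again at both later times, it was the weakest of the members.

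RBM17, which selects 3′ splice sites through partners at the branch point, had the strongest member peak at 3 days, over its start at chr10:6089034. Its −log10 p was 53.7 in both untreated replicates (percentile 98.2), 54.9 and 209.5 at 3 days (percentile 97.7) and 24.6 and 27.3 at 6 days (percentile 97.2). It carried no HMGB2 peak. RBM25, a speckle protein that binds with the U1 particle, had a start peak of 27.7 in both untreated replicates (percentile 91.8), 17.4 and 22.6 at 3 days (84.9) and 19.2 and 14.7 at 6 days (89.8), and an HMGB2 peak of 13.4 (78.7). Both genes had the SON peak in all 3 lists with a global IDR of 0.0208 or lower.

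RBM42 and RBM48 also kept a SON peak in every SON list, but with a high global IDR at 6 days. RBM42 had 21.3 in both untreated replicates, 16.2 and 18.3 at 3 days and 12.8 and 7.47 at 6 days, with percentiles of 86.0, 82.9 and 32.1 and a global IDR of 0.36 at the last. RBM48, a minor spliceosome protein, had 39.6 in both untreated replicates, 20.0 and 22.8 at 3 days and 8.64 and 12.1 at 6 days, with percentiles of 96.3, 88.1 and 51.6 and a global IDR of 0.286 at the last.

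The related regulators of alternative exons RBM5, RBM6 and RBM10 had no SON peak at 6 days. Only 21.5% of all genes had one at that time, so its absence here is the common outcome. RBM5 had a start peak of 8.85 in both untreated replicates (percentile 41.8), none later, and an HMGB2 peak of 11.2 (65.8). RBM10 had 11.6 in both (60.2) and no peak in the other lists, and NDUFB11 starts within 1 kb of it. RBM6 had 17.3 in both untreated replicates (79.1) and 11.2 and 13.1 at 3 days (66.5), and none at 6 days or for HMGB2. RBM22, a protein at the catalytic core of the spliceosome, had the weakest start peak of the members in untreated cells, with 12.1 and 5.87 in the 2 replicates (percentile 8.59), and no peak elsewhere.

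On chromosome 11 the genes RBM14, RBM4 and RBM4B lie side by side, and each had its own start peak. RBM4 and RBM4B are paralogs that regulate alternative splicing, and RBM14 is a protein of paraspeckles. RBM14 (chr11:66616630-66629934) had a SON −log10 p of 37.8 in both untreated replicates, 45.0 and 67.4 at 3 days and 12.01 and 18.97 at 6 days, and HMGB2 peaks of 17.95 and 6.56. RBM4 (chr11:66638703-66668380) had 40.0 and 40.1 in untreated cells, 20.1 in both replicates at 3 days and no peak at 6 days, and an HMGB2 peak of 8.11. RBM4B (chr11:66664998-66677887), on the opposite strand, had 20.6 in both untreated replicates, 12.8 and 77.4 at 3 days and 14.96 and 18.9 at 6 days, and an HMGB2 peak of 16.5. RBM4 thus had the strongest untreated peak of these 3 and was the 1 without a peak at 6 days. The start of RBM14 is also that of the read-through gene RBM14-RBM4.

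**Figure D4:**
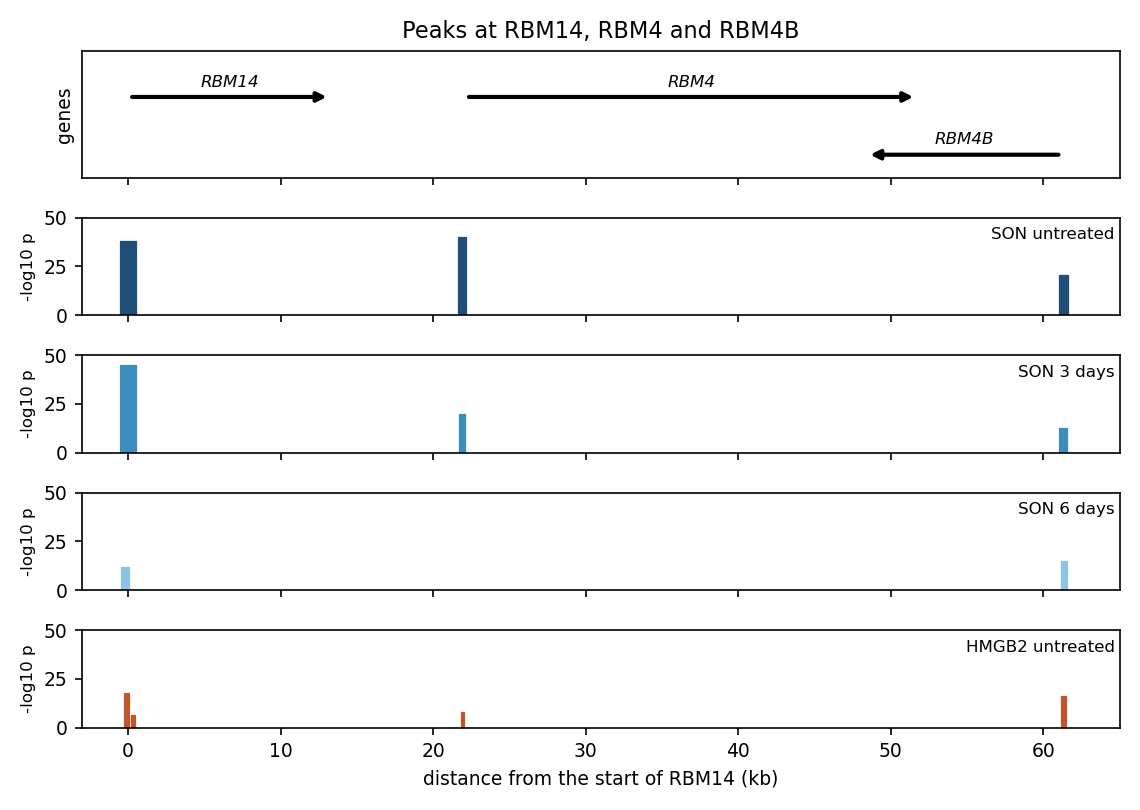
Map of RBM14, RBM4 and RBM4B, with arrows in the direction of transcription, and below it the peaks of each list as bars at their position and width, with −log10 p as height. The x axis is the distance from the start of RBM14 in kb. Each start has a bar in the untreated and 3-day SON lists and in the HMGB2 list, and the RBM4 start has none at 6 days.

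All 7 members of exon junctions, RNA modification and RNA decay had an untreated SON peak. At 3 days 5 of them had one, at 6 days 2, and 3 had an HMGB2 peak, against 57.1%, 41%, 21.5% and 23.3% of all genes in the 4 lists. The 6-day share of 28.6% was near that of all genes. RBM7, the RNA-binding subunit of the nuclear exosome targeting complex, had the second strongest untreated peak of the members, at chr11:114400120-114400959 over its start. Its −log10 p was 70.7 in both untreated replicates (percentile 99.1), 49.1 and 169 at 3 days (97.3) and 16.4 and 24.99 at 6 days (93.0), and its HMGB2 peak had 10.1 (56.0). The gene C11orf71 starts within 1 kb of these peaks. RBM15, an adaptor of the m6A writer, had 64.8 and 65.2 in untreated cells (98.8), 23.3 in both replicates at 3 days (90.8), 15.99 and 12.04 at 6 days (82.3) and an HMGB2 peak of 10.8 (62.2).

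Its paralog RBM15B had 32.2 and 30.6 in untreated cells (percentile 93.4) and 8.79 and 13.3 at 3 days (47.4), with no peak at 6 days and none for HMGB2. RBM8A, a core subunit of the exon junction complex, had 21.5 in both untreated replicates (86.3), 6.09 and 14.8 at 3 days (10.8, global IDR 0.447) and none at 6 days. Its HMGB2 peak, with 17.1 and a fold enrichment of 5.93, was at percentile 89.7, among the 3 strongest members of that list. RBM27 had a start peak in untreated cells and at 3 days, with 20.7 and 24.8 and then 13.8 and 21.2. RBM26 had a start peak of 8.85 in both untreated replicates and none later. RBM33, a partner of the m6A eraser ALKBH5, had no peak at its start, and its single untreated peak lay 21.2 kb inside the gene with 8.13 and a global IDR of 0.431.

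The nucleolar members differed in where their peaks lay. RBM19, needed for ribosomal RNA processing, had a start peak of 50.1 in both untreated replicates (percentile 97.9), 41.7 and 85.2 at 3 days (96.3) and 12.8 and 25.3 at 6 days (85.4), and no HMGB2 peak. RBM28, a ribosome assembly factor, had 12.2 and 7.57 in untreated cells (29.0) and 5.85 and 6.69 at 3 days (7.67). RBM34 had SON peaks of 61.5 in both untreated replicates (98.7), 53.3 and 157 at 3 days (97.6) and 16.0 and 22.7 at 6 days (92.4), but these lay beyond the far end of the gene, 31975 bp from its own start in untreated cells, and within 1 kb of the start of TOMM20. At its own start RBM34 had only an HMGB2 peak, of 7.82 and percentile 28.7. With the gene span alone as the window, RBM34 had no SON peak.

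A group of 7 members was set apart as tissue-restricted or induced (RBM11, RBM20, RBM24, RBM38, RBM44, RBM46, RBM47), and none of these 7 had a start peak in any of the 4 lists. The shares of all genes with one were 40.1%, 28.2%, 11.7% and 15.2%. A count of 0 of 7 therefore says little at 3 days, at 6 days and for HMGB2, and it was tested in no list. The count depends on the grouping, since RBM3, which is induced by cold, was placed elsewhere and had an untreated SON start peak. Of the 30 members outside the group, 27 had an untreated SON start peak. The 3 exceptions were RBM33, RBM34 and RBM41. RBM20, which splices titin in heart muscle, had 3 untreated SON peaks inside its 196 kb span, the strongest 158 kb from the start with 9.87 and 14.3 (percentile 49.8). A peak at the same place was present at 3 days (7.86 and 8.64) and for HMGB2 (12.05, percentile 72.1). A further RBM20 peak, 20.7 kb from the start, was present at 3 days (8.04 in both replicates) and at 6 days (11.7 and 11.2, percentile 78.0) and not in untreated cells.

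RBM47, an RNA-binding cofactor of C-to-U editing, had a peak 7.83 kb from the nearest start in untreated cells (15.5 and 11.3, percentile 58.4) and at 3 days (6.92 in both, 21.3). RBM46, a germ cell protein, had 1 peak, at 6 days, 41.3 kb inside the gene with 5.97 and 8.52 (percentile 7.65) and the largest global IDR of that list. RBM24 of muscle, RBM11, RBM44 and the p53 target RBM38 had no peak. Promoters with and without an untreated SON start peak were compared in base content. The 10 promoters of members without an untreated SON start peak had a median of 66.8% G and C and 22.5 CpG, and the 23 with one had 59.6% and 18. Over all genes the medians were 60.0% and 10 CpG without a peak and 64.0% and 21 with one, so both measures ran in the opposite order there. The ratio of observed to expected CpG ran in the same order, with medians of 0.813 without and 0.826 with a peak among the members and 0.533 and 0.851 over all genes. RBM41 had the lowest value of the members, 41.6% and 5 CpG, and RBM38 the highest, 82.8% and 35 CpG.

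The 7 remaining members all had an untreated SON peak at the start, 3 of them at 3 and 6 days as well, against 40.1%, 28.2% and 11.7% of all genes. RBM12B had 22.4 in both untreated replicates (percentile 87.3), 27.0 and 100.2 at 3 days (92.8) and 11.2 and 15.8 at 6 days (77.7). RBM12 had 15.2 in both untreated replicates (73.9), 11.2 and 28.4 at 3 days (66.3) and 7.03 and 8.96 at 6 days (24.0, global IDR 0.63), at a start it shares within 1 kb with CPNE1. RBM14, described above, was the third. RBM3, known for induction by cold, had 7.37 in both untreated replicates (26.4, global IDR 0.431) and no other peak. RBM18 and RBM45 likewise had a peak only in untreated cells, with 9.70 and 13.9 and with 11.8 in both replicates. RBM43 had 3 untreated peaks, the strongest of them inside the gene with 10.6 and 14.6 (54.3). The untreated peak at its gene end had 8.09 and 6.34, and an HMGB2 peak there had 13.4 (79.0).

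Which untreated peaks of the members were found again went with their strength. Of the 42 untreated SON peaks of members, 14 overlapped a peak at both later times by at least 1 bp, 9 at 3 days only, none at 6 days only and 19 in neither. The median percentiles were 96.1 for both times, 79.1 for 3 days only and 34.7 for neither. This split and its medians were not computed over all untreated peaks, so they show nothing particular to the members. The strongest peak found in neither later list stood at percentile 60.6, and the weakest found in both, at RBM23, at 32.4. In all, 23 of 42 (54.8%, 38.7 to 70.2%) recurred at 3 days, against 45.4% of all untreated peaks, and 14 (33.3%, 19.6 to 49.5%) at 6 days, against 21.9%.

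Limited to the 27 peaks at starts, 19 (70.4%, 49.8 to 86.2%) recurred at 3 days, and 13 (48.1%, 28.7 to 68.1%) did at 6 days. Over all untreated peaks at gene starts these shares were 64.8% and 26.4%. When the peaks at all gene starts were weighted to the 5 strength classes of the member peaks, they were 74.1% and 36.3%, and both values lay inside the members' intervals. Away from the starts 4 of 15 member peaks recurred at 3 days and 1 at 6 days, the one near TOMM20, against 36.0% and 19.7% of all untreated peaks away from gene starts, so here the members' shares were the lower ones. Read the other way, 23 of 24 member peaks at 3 days were in the untreated list (91.6% of all 3-day peaks), with 19 of 19 at starts (96.9%). Of the 17 at 6 days, 14 were in the untreated list (88.9% of all) and 15 in the 3-day list (80.9%), with 13 of 13 at starts in each (99.1% and 97.7%). The 3 peaks at 6 days without an untreated counterpart were 2 in RBM20 and the 1 in RBM46.

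**Figure D5:**
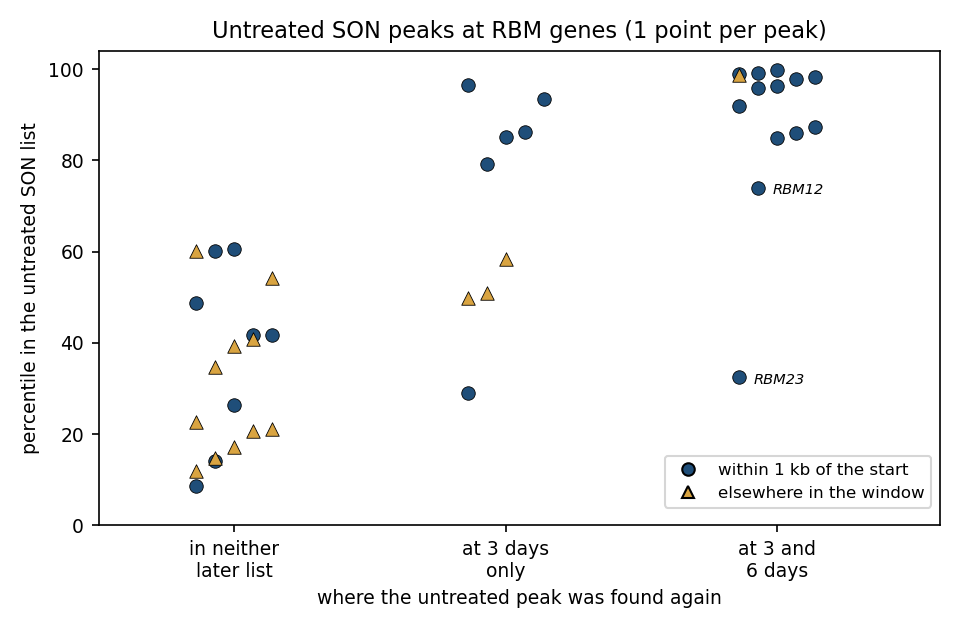
Untreated SON peaks of the RBM genes by where they were found again. The y axis is the percentile in the untreated list, circles are peaks within 1 kb of a start and triangles are other peaks. The 19 peaks found in neither later list all lie at or below percentile 60.6, and RBM23 lies lowest among the 14 found at both times.

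HMGB2 and SON met at most of the HMGB2 peaks of the members. An untreated SON peak overlapped 14 of the 16 (87.5%, 61.7 to 98.4%), against 62.3% of all HMGB2 peaks. A 3-day SON peak overlapped 12 (75%, against 44.1%) and a 6-day SON peak 8 (50%, against 23.5%). Limited to the 14 at starts, the counts were 13, 11 and 8, against 77.6%, 61.3% and 30.9% of HMGB2 peaks at all gene starts. The 2 that met no untreated SON peak were those at the start of RBM34 and inside RBM39. Seen from SON, 13 of the 42 untreated member peaks (31.0%) overlapped an HMGB2 peak, against 16.5% of all, and at starts 12 of 27 (44.4%, against 29.4%).

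The 2 replicate values of −log10 p were identical at 26 of 42 member peaks in the untreated list (61.9%, against 56.0% of all), 5 of 24 at 3 days (20.8%, against 28.9%) and 0 of 17 at 6 days (against 9.47%). At 3 days the values differed most at RBM17, RBM7 and RBM34, where replicate 2 was higher by more than 100 units, and the lower value is the one ranked. Peaks with a global IDR up to 0.05 made up 26 of the 42 untreated peaks (61.9%, against 59.7% of all), 16 of 24 at 3 days (66.7%, against 41.4%) and 7 of 17 at 6 days (41.2%, against 15%).

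A neighbour shared several of these places. Another protein-coding gene starts within 1 kb of the untreated start peaks of RBM7, RBM10, RBM12, RBM14, RBM15, RBM18 and RBM27, where those of RBM14 and RBM27 are read-through genes with the same start. Peaks outside the gene lay at such a neighbour for RBM10 (UBA1), RBM34 (TOMM20) and RBM39 (NFS1 and ROMO1).

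Genes for partners of RBM proteins (the exon junction complex, nuclear exosome targeting, the m6A writer and splicing factors that contact RBM proteins) were read in the same way. All 23 had an untreated SON peak at the start, against 40.1% of all genes. In the gene span plus 5 kb, all 23 thus had an untreated SON peak as well. In that window 16 had a SON peak at 3 days (69.6%) and 9 at 6 days (39.1%), and 11 had an HMGB2 peak (47.8%). The shares of all genes for that window were 57.1%, 41%, 21.5% and 23.3% in the 4 lists. ARMC7, which binds RBM48, had an untreated SON −log10 p of 11.98 and no peak at 6 days, and CASC3 of the exon junction complex had 15.2, no SON peak later and an HMGB2 peak of 18.9. U2AF2, named here after its values were seen, had SON values of 540.3 untreated, 326 at 3 days and 152 at 6 days, above every member in each SON list.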

How the data were processed

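ChIPmentation peaks of SON (untreated, 3 and 6 days of ICM) and HMGB2 (untreated) were analysed, 1 deposited list per group, grouped by the labels. Per the submitters' processing notes, the genome was hg38 and the tools included bcl2fastq 2.17, Bowtie2, deepTools and MACS2, with no roles given. The deposited SON lists have no header line, and their layout is that of the IDR tool run on 2 replicates. The authors deposited −log10 p per peak and per replicate, with the IDR score as −log10 of the global IDR. For HMGB2 the authors deposited −log10 p, −log10 q and a fold enrichment, and the peak names state a q of 0.03. The control, read filters and depth are not given in the sources used here, and how the 2 replicates were made is not stated.

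Peaks on chromosomes 1 to 22 and X were joined to the 19974 protein-coding genes of RefSeq GRCh38.p14, the build of the lists, by an overlap of at least 1 bp with the span plus 5 kb. Starts and the 250 upstream bases came from the RefSeq promoter table, which held 33 of 37 members. Intervals are 95% exact binomial (Clopper-Pearson). No test was made. Members described in full were the 3 strongest in each list, those with a peak in all lists or in none, and those with a SON peak only after ICM. Some neighbouring genes are not reported here. The members and lists were chosen with earlier results of these data known. The joins were tested on simulated data with planted peaks. The software was matplotlib 3.10.9, scipy 1.17.1, pandas 2.3.3 and numpy 2.4.6 under Python 3.11.15. Alternatives changed the window, the overlap, the threshold, the number of peaks and the measure of strength.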

Additional observations from a re-analysis of the deposited data

How the results depend on the processing

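Of 63 alternative values, 61 stayed within 1.5 times the reported count or within the counting interval of the reported share or median. The 2 that moved were the number of members with an untreated SON peak, 17 in place of 31 with the 5481 strongest peaks of each list, and the number at 6 days, 7 in place of 16 with a global IDR of at most 0.05. Both selections keep fewer peaks by construction. In the 28 alternatives of the members with a peak, the members' share was above that of all genes each time, and in the 15 alternatives of the peaks found in another list, peaks at and away from starts together, it was above that of all peaks each time. Neither was tested against chance. The median percentile of member peaks was 59.3, 83.9, 82.3 and 69.0 in the 4 lists. Peak width in place of −log10 p brought it down to 51.9, 55.6, 57.2 and 54.8. With only the strongest peak of each member it was 85.0, 86.5, 83.9 and 69.0. The untreated value of 85.0 counted as unchanged because the counting interval of that median is wide. No paired analysis was possible because each group is 1 list with no replicate numbers in the labels, and no sample could be left out for the same reason. Depth is unknown, so a missing peak is a peak below the authors' threshold at an unknown depth.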

Other observations

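Genes with a letter after RBM, outside the numbered family, were also read. Of 8 such genes, 6 had an untreated SON peak (75%), 4 a SON peak at 3 days, 1 at 6 days (12.5%) and 4 an HMGB2 peak, against 57.1%, 41%, 21.5% and 23.3% of all protein-coding genes, so the 6-day share was below that of all genes. RBMS1, a single-stranded nucleic acid binding protein, had 5 untreated SON peaks, the strongest with a −log10 p of 17.8 (percentile 80.3), 3 SON peaks at 3 days and 3 HMGB2 peaks, none of them within 1 kb of its start. RBMS2 had 3 untreated SON peaks, the strongest with 8.68, and 1 HMGB2 peak with 14.3 (percentile 82.3). RBMXL2 and RBMXL3, retrogenes of RBMX known from testis, had no untreated SON peak.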
